A study of Homo sapiens with 12 samples.

Results

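The human mitochondrial genome carries 37 genes, and all 37 were found among the 58302 genes of each deposited table by the rule that a symbol starts with MT-: 13 mRNAs, 2 rRNAs and 22 tRNAs. They were measured in 12 RNA libraries of the human non-small-cell lung cancer lines H1299 and H1703. The groups, with 3 libraries each, were H1299 with SAHA, H1299 with DMSO, H1703 with SAHA and H1703 with DMSO. SAHA (vorinostat) is a hydroxamate inhibitor of zinc-dependent histone deacetylases, and DMSO is its vehicle. The treatment protocol gives 24 h, SAHA at 0, 2.5, 10 or 40 µM and 0.1% DMSO, without saying which dose the sequenced cells received. Neither line has a normal counterpart in the series. The repeats carry no label of separate cultures, and the spread that the p-values rest on may therefore be technical.

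Mitochondrial DNA encodes core subunits of respiratory complexes I, III, IV and V, together with the rRNAs and tRNAs that translate them inside the organelle. Both strands are transcribed into long precursors from promoters in the control region, tRNAs punctuate these precursors, and cutting at the tRNAs frees the mRNAs and rRNAs. The remaining respiratory subunits, and all proteins that replicate, transcribe, process and translate mitochondrial nucleic acid, come from nuclear genes, so each complex other than complex II joins products of both genomes. Here "plus strand" means the strand as written in the reference sequence. It holds 12 of the mRNAs, both rRNAs and 14 tRNAs, whereas MT-ND6 and 8 tRNAs lie on the minus strand.

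Library totals ran between 14.4 and 19.4 in units of 1e6 counts. The libraries were made from polyadenylated RNA, so rRNA and tRNA counts report the molecules that entered such libraries and not the total pools. The labels contradict each other on strand, so counts of a gene cannot be told apart from those of RNA of the opposite strand at the same place. Both lines are labelled epithelial. KRT8 averaged 689 and 227 CPM (counts per 1e6 counts of the library) in H1299 with SAHA and with DMSO, and 1371 and 1164 CPM in H1703. CPM of the markers in this paragraph use the library total without further scaling. Of 6 epithelial markers, 2 reached a mean of 1 CPM in H1299. CDH1 averaged 0.176 CPM in H1299 with SAHA and had no count in H1299 with DMSO, and EPCAM stayed below 0.3 CPM in that line, so both of these defining epithelial markers were near 0 there. The leukocyte marker PTPRC was below 0.06 CPM in every group. The 5 fibroblast markers together ran at 36.0 to 50.8 CPM in H1299 with SAHA and 1.32 to 2.62 CPM with DMSO, and at 100.3 to 112 CPM and 58.7 to 69.3 CPM in H1703. COL1A1 made up most of this in H1299 with SAHA (41.9 CPM, against 1.46 CPM with DMSO), and LUM differed most in H1703 (45.7 and 4.7 CPM). The 5 leukocyte markers summed to 19.4 to 21.5 CPM with SAHA and 22.4 to 46.3 CPM with DMSO in H1299, and to 64.8 to 72.5 and 26.1 to 44.3 CPM in H1703, through CD68 and, in H1703, CD14. The 3 endothelial markers summed to at most 6.52 CPM in any library. The part of these lists in the results on mitochondrial genes was not tested.

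With SAHA, mitochondrially encoded RNA took more of the library in each line, and it took more in H1703 than in H1299 under either condition. In H1299 the 37 genes held 4.23, 4.06 and 3.999% of the counts with SAHA and 2.18, 1.96 and 2.22% with DMSO, a ratio of 1.93. In H1703 they held 9.01, 8.77 and 10.9% with SAHA and 5.92, 6.27 and 5.44% with DMSO, a ratio of 1.63. The groups did not overlap in either line. Library 3 of H1703 with SAHA was the highest of all, and without it the difference in H1703 was 3.01 percentage points in place of 3.70. In bulk libraries, more mitochondrial RNA per cell, less nuclear mRNA per cell and a change in which cells were harvested cannot be told apart. No test was made of the share, because it sums over chosen genes.

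The share differed by kind of RNA. The 13 mRNAs held 3.60 ± 0.101% of the counts in H1299 with SAHA and 1.90 ± 0.126% with DMSO, and 7.13 ± 0.976% and 4.26 ± 0.286% in H1703 with SAHA and with DMSO (SD, n = 3 each). The rRNAs held 0.406 ± 0.0553% and 0.192 ± 0.0140% in H1299, against a far larger 2.28 ± 0.246% and 1.55 ± 0.151% in H1703. The tRNAs were the smallest class and the one with the largest ratios, 3.57 in H1299 and 2.64 in H1703. Most of that came from the tRNA genes annotated on the minus strand. The 8 minus-strand tRNAs reached 4.09 times their DMSO share in H1299 and 2.73 times in H1703, whereas the 14 plus-strand tRNAs reached 1.15 and 1.83 times.

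**Figure D1:**
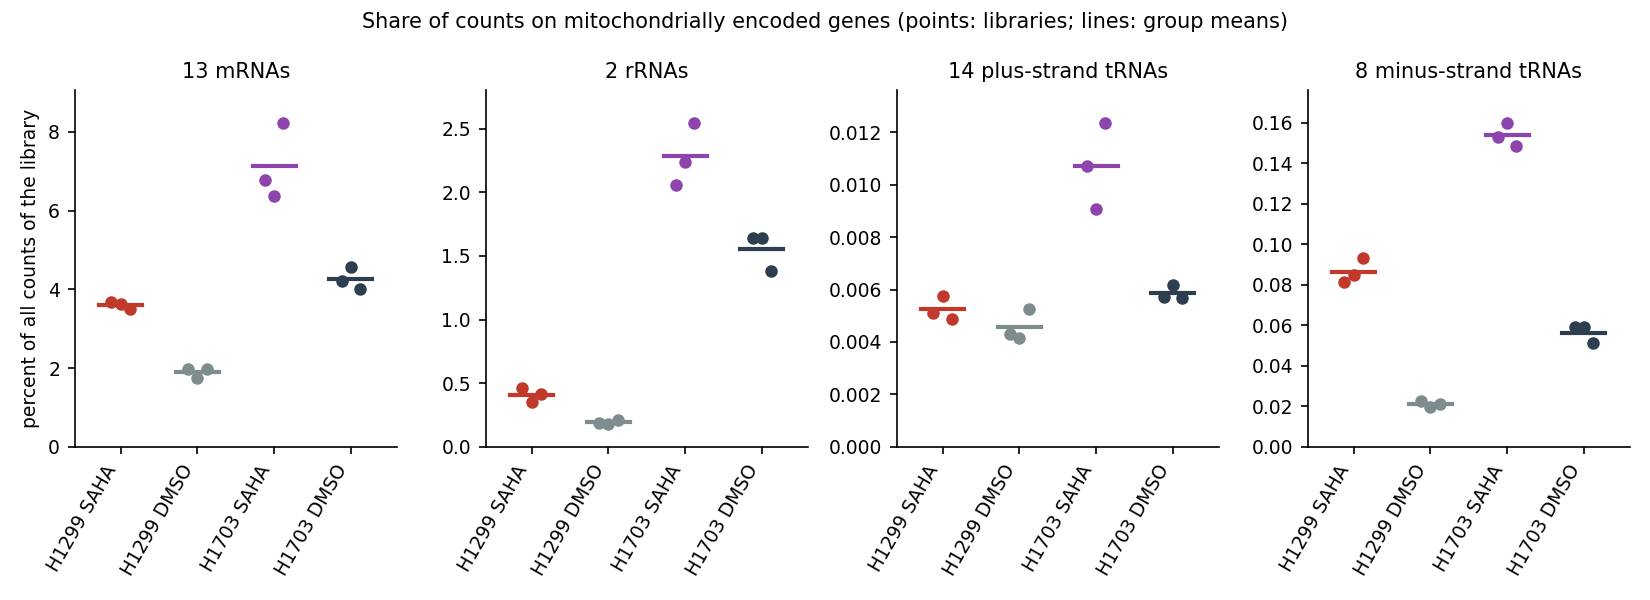
Percent of all counts of a library on the mitochondrial mRNAs, rRNAs, plus-strand tRNAs and minus-strand tRNAs, 1 point per library and a line at the mean of each group of 3. SAHA libraries lie above the DMSO libraries of the same line in each panel except for the plus-strand tRNAs of H1299, where the ranges overlap, and the 2 rRNAs reach 2.55% in H1703 with SAHA.

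Gene by gene, SAHA was compared with DMSO within each line by edgeR's quasi-likelihood test over all genes, and a gene was called at a Benjamini-Hochberg adjusted p below 0.05. In H1299, 32 of the 37 genes passed the filter on low counts; 22 rose and none fell. In H1703, 35 passed; 30 rose and none fell. SAHA moved much of the transcriptome: of all genes tested, 63.8% were called in H1299, where 33.3% rose, and 67.4% in H1703, where 34.7% rose. The median log2 fold change was 0.71 over the 32 mitochondrial genes tested in H1299 and 0.89 over the 35 in H1703, beside 0.02 over all genes tested in each line. Genes are given with their CPM, scaled over the 12 libraries by trimmed mean of M-values (TMM), and with their log2 fold change ± SE.

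All 13 mRNAs rose in H1299, with a median log2 fold change of 0.76. In H1703, 12 of 13 rose, with a median of 0.80, and without library 3 of H1703 with SAHA the same number rose with a median of 0.77. The log2 fold changes had a Spearman rho of 0.65 over the 13 mRNAs, which share the same libraries within a line. MT-ND1 had the largest value in each line, and a complex V gene the smallest, MT-ATP8 in H1299 and MT-ATP6 in H1703. For all 13 mRNAs and both rRNAs, each SAHA library was above each DMSO library of its line, without counts of nuclear copies added. That order of libraries held for 38.1% of all genes tested in H1299 and 36.3% in H1703.

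Complex I, which takes electrons from NADH, has 7 mitochondrial subunits, and all 7 rose in both lines. MT-ND1, a membrane subunit, had 1704, 1794 and 1679 CPM in H1299 with SAHA, against 789, 701 and 799 CPM with DMSO. In H1703 it had 3479.7, 3276 and 4471 CPM with SAHA, against 1497, 1653 and 1399 CPM with DMSO. The groups were far apart in both lines, and library 3 was the highest of the SAHA libraries in H1703. The log2 fold change was 1.12 ± 0.09 in H1299 (edgeR quasi-likelihood test, adjusted p = 6.0e-06) and 1.32 ± 0.13 in H1703 (adjusted p = 2.3e-05), the largest of the mRNAs in each line. MT-ND2, the gene between MT-TM and MT-TW, was the smallest of the complex I genes in each line, at 0.63 ± 0.08 in H1299 and 0.75 ± 0.15 in H1703. The other complex I genes on the plus strand, MT-ND3, MT-ND4L, MT-ND4 and MT-ND5, lay between 0.66 and 0.88 in H1299 and between 0.80 and 0.99 in H1703.

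MT-ND6 is the only mRNA of the minus strand, and the only mitochondrial mRNA thought to lack a stable poly(A) tail in human cells. It had 388, 397 and 377 CPM in H1299 with SAHA, against 179.6, 172 and 196 CPM with DMSO. In H1703 MT-ND6 had 754, 742 and 1097 CPM with SAHA, against 413, 434 and 364 CPM with DMSO. It rose by 1.03 ± 0.08 on the log2 scale in H1299 (adjusted p = 6.3e-06, edgeR) and by 1.12 ± 0.17 in H1703 (adjusted p = 7.2e-04), values inside the range of the plus-strand mRNAs. With the contradiction on strand, counts of MT-ND6 cannot be told apart from those of plus-strand RNA at the same place.

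Complex III has a single mitochondrial subunit, cytochrome b, encoded by MT-CYB. MT-CYB had 2839, 2784 and 2772 CPM in H1299 with SAHA, against 1522, 1382 and 1446 CPM with DMSO, a rise of 0.89 ± 0.08 on the log2 scale. In H1703 it had 5096, 4961 and 6582 CPM with SAHA, against 3581, 3658 and 3256 CPM with DMSO, a rise of 0.68 ± 0.11. Complex IV, cytochrome c oxidase, has its catalytic core from MT-CO1, MT-CO2 and MT-CO3, and all 3 rose in both lines. MT-CO1, which carries the haem and copper site where oxygen is reduced, was the most counted mRNA: 9765, 10174 and 9692 CPM in H1299 with SAHA, against 4723, 4204 and 4691 CPM with DMSO. H1703 had 27506, 25539 and 32883 CPM with SAHA, against 13762, 15639 and 13276 CPM with DMSO. Its log2 fold change was 1.07 ± 0.09 in H1299 (adjusted p = 9.7e-06, edgeR) and 1.03 ± 0.11 in H1703 (adjusted p = 2.3e-05). MT-CO2, which receives electrons from cytochrome c, rose less, by 0.71 ± 0.08 and 0.51 ± 0.09. MT-CO3 rose by 0.71 ± 0.08 in H1299 and 0.71 ± 0.10 in H1703.

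Complex V, the ATP synthase, has its mitochondrial subunits from MT-ATP8 and MT-ATP6, 2 reading frames on a single mRNA. The genes share 46 bases, shown here with 6 bases on either side because counts that fall there cannot be given to either gene (GRCh38, plus strand, MT:8521-8578, shared bases in capitals).
MT-ATP8/MT-ATP6: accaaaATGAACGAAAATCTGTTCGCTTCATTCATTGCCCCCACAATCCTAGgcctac
The capitals open with the start codon of MT-ATP6 and close with the stop codon of MT-ATP8. MT-ND4L and MT-ND4 form the other such pair and share 7 bases (MT:10754-10772).
MT-ND4L/MT-ND4: actccaATGCTAAaactaa

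MT-ATP8 had 403, 473 and 469 CPM in H1299 with SAHA, against 323, 318 and 364 CPM with DMSO, and 1139, 1192 and 1080.3 CPM in H1703 with SAHA, against 649.9, 713 and 641 CPM with DMSO. It rose by 0.37 ± 0.10 in H1299 (adjusted p = 0.00817, edgeR), the smallest rise of the 13 mRNAs in that line, and by 0.78 ± 0.07 in H1703 (adjusted p = 1.1e-05). MT-ATP6, the channel subunit through which protons return, had 908, 865 and 833 CPM in H1299 with SAHA, against 557, 502 and 563 CPM with DMSO, and rose by 0.63 ± 0.08 (adjusted p = 1.6e-04). Its raw counts in H1703 were 24060, 26871 and 35037 with SAHA, against 22411, 26342 and 18897 with DMSO. On the CPM scale the lowest SAHA library, at 1561, was just above the highest DMSO library, at 1537, and the value of 0.38 ± 0.16 was not called (adjusted p = 0.0729, edgeR). It was called with DESeq2 (adjusted p = 0.0427), in a fit over all 12 libraries (0.0240) and without library 2 of H1703 with SAHA (0.0450). Without library 3 of H1703 with SAHA it was 0.17 (adjusted p = 0.100).

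Because reads of MT-ATP6 can align to a nuclear copy, the copies were counted too. The tables hold 407 nuclear copies of mitochondrial genes, 328 of them without a count in any library. MTATP6P1 (chromosome 1, 633696 to 634376, unprocessed pseudogene) matches MT-ATP6 at 98.5% of its 681 bases. It had 1678, 1116 and 21889 counts in H1703 with SAHA, against 13103, 16305 and 11576 counts with DMSO, and 10, 14 and 13 counts in H1299 with SAHA, against 0, 1 and 6 counts with DMSO. Expressed against MT-ATP6, these counts came to 6.97, 4.15 and 62.5% in H1703 with SAHA and 58.5, 61.9 and 61.3% with DMSO. Library 3 of H1703 with SAHA therefore resembled the DMSO libraries in this ratio and not the other SAHA libraries. With the counts of the copy added, MT-ATP6 changed by 0.07 ± 0.38 in H1703 (adjusted p = 0.888, edgeR), an alternative chosen after seeing the data. Gene and copy together had 1541, 1442 and 3309 CPM with SAHA there, against 2139.8, 2335 and 2001 CPM with DMSO. These CPM use the library total without further scaling. Libraries 1 and 2 with SAHA were thus below each DMSO library, and library 3 was above. MTND2P28 matches MT-ND2 at 98.4% and MTCO1P12 matches MT-CO1 at 98.7%. Adding them left MT-ND2 at 0.60 ± 0.08 in H1299 and 0.78 ± 0.13 in H1703, and MT-CO1 at 1.06 ± 0.09 and 1.03 ± 0.11. No source used here gives how multiply aligned reads were counted.

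**Figure D2:**
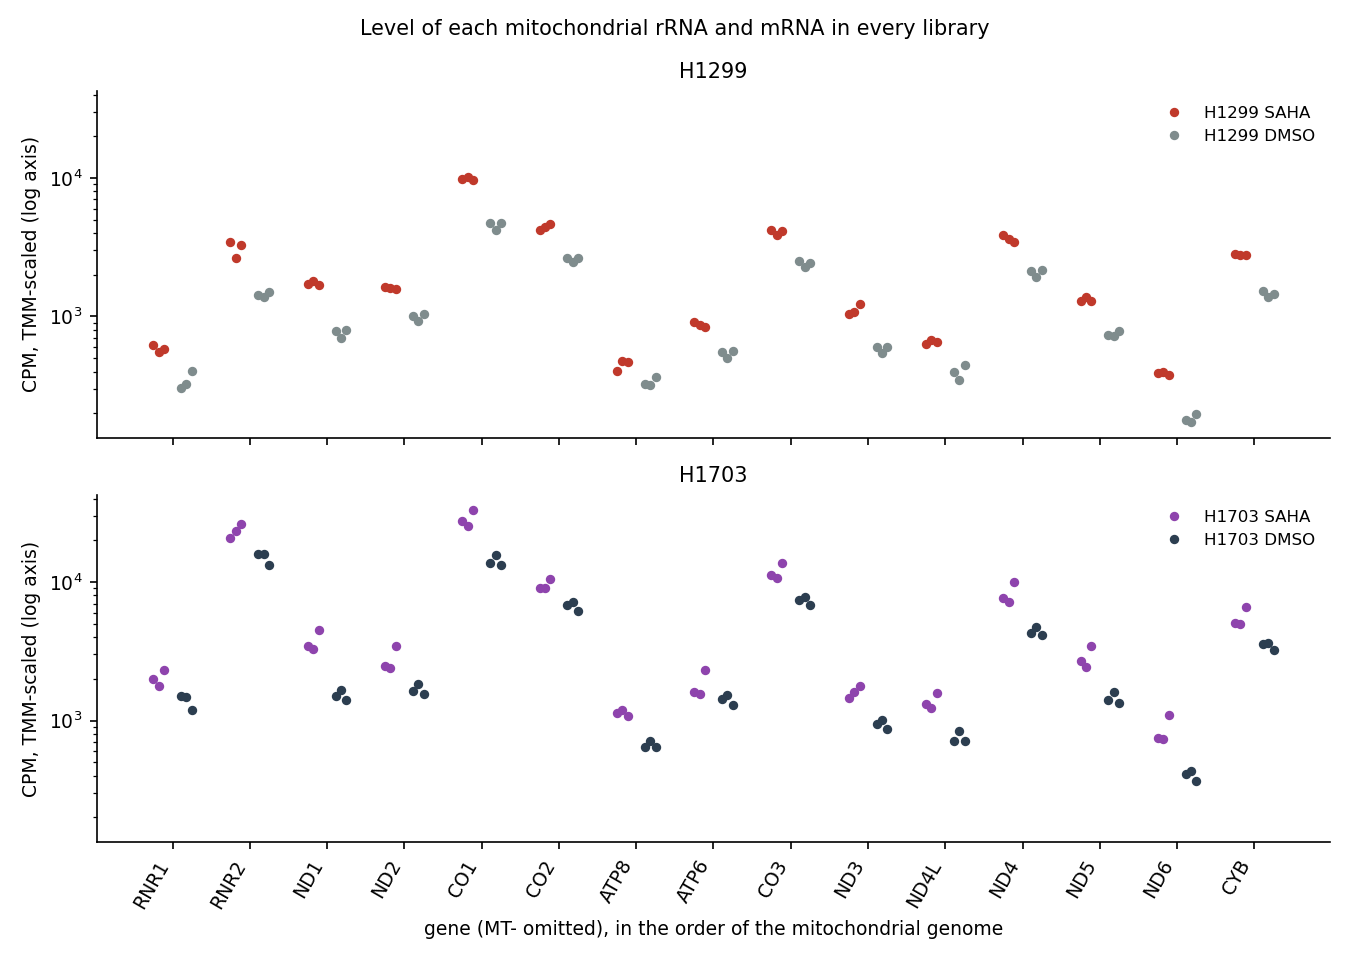
CPM, on a log axis, of the 2 rRNAs and 13 mRNAs in genome order, 1 point per library, H1299 above and H1703 below. Counts of nuclear copies are not included. In each line every SAHA library lies above every DMSO library for all 15 genes. The gap is narrowest for MT-ATP6 in H1703, where SAHA libraries start at 1561 CPM and DMSO libraries end at 1537 CPM.

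To ask which mRNAs moved relative to each other, the same test was run with each library scaled to the sum of its 13 mitochondrial mRNA counts. In H1299, 6 of the 32 mitochondrial genes tested were called higher and 10 lower on this scale, and in H1703 8 of 35 higher and 2 lower. Of all genes, 78.8% were called in H1299, 14.6% higher and 64.1% lower, and 75.0% in H1703, 14.0% higher and 61.0% lower, with a median of -0.84 and -0.82. Of the 13 mRNAs, 11 were not called in each line. MT-CO1 was among these, with an adjusted p of 0.112 in H1299 (edgeR). Its part of the pool was nevertheless 29.6 to 30.7% with SAHA and 25.5 to 26.1% with DMSO there. The spread in this fit was estimated with all genes on that scale, so a missing call does not show an unchanged part of the pool. MT-ND1 made up 5.24 ± 0.151% of mitochondrial mRNA counts in H1299 with SAHA and 4.34 ± 0.0805% with DMSO, and 4.66 ± 0.129% and 3.37 ± 0.0300% in H1703 (SD, n = 3 each). Its share was called higher in H1299 (log2 0.27 ± 0.11, adjusted p = 0.0317, edgeR) and in H1703 (0.47 ± 0.15, adjusted p = 0.0104). With the repeat number as a block the adjusted p was 0.0656 in H1299 and 0.0606 in H1703. Leaving out single libraries of H1299 gave an adjusted p up to 0.0996, and leaving out library 1 of H1703 with DMSO gave 0.0704. MT-ATP8 lost share in H1299 (-0.48 ± 0.11, adjusted p = 0.00154), at 1.36 ± 0.119% with SAHA and 1.90 ± 0.113% with DMSO. MT-ATP6 lost share in H1703 (-0.48 ± 0.16, adjusted p = 0.00985), at 2.26 ± 0.190% with SAHA and 3.16 ± 0.0537% with DMSO. With the block that adjusted p was 0.0533, without library 1 of H1703 with SAHA 0.0696 and without library 1 of H1703 with DMSO 0.0612.

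By complex, the complex V mRNAs held less of the mitochondrial mRNA pool with SAHA in both lines, with no overlap between groups. They held 4.0 ± 0.0321% against 4.98 ± 0.126% with DMSO in H1299, and 3.70 ± 0.114% against 4.64 ± 0.0228% in H1703. In H1299 both genes held less. In H1703 MT-ATP6 held 2.26% with SAHA and 3.16% with DMSO, and MT-ATP8 1.44% and 1.48%. Counts of MTATP6P1 were not part of this pool. The means of the other complexes did not move the same way in both lines. Complex IV held 55.8 ± 0.539% with SAHA and 54.2 ± 0.399% with DMSO in H1299, and 62.6 ± 1.00% and 62.9 ± 0.0730% in H1703. Complex I held 31.8 ± 0.466% with SAHA and 32.6 ± 0.509% with DMSO in H1299, where the ranges met, and 26.8 ± 0.896% and 24.7 ± 0.271% in H1703, where they did not overlap. Complex III held 8.50 ± 0.116% and 8.25 ± 0.246% in H1299, and 6.91 ± 0.161% and 7.77 ± 0.258% in H1703. These pool shares were not tested.

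Between genes, levels can only be set side by side per length, for which the deposited FPKM values were used. Among the 13 mRNAs, the complex IV genes stood at the top in every group. MT-CO2 averaged 7052 FPKM and MT-CO1 7001 FPKM in H1299 with SAHA, with overlapping libraries, and in H1299 with DMSO MT-CO2 averaged 4109 FPKM, above MT-CO3 at 3308 FPKM. In H1703 with SAHA the order was MT-CO1 at 16527, MT-CO3 at 13488 and MT-CO2 at 12382 FPKM, and with DMSO MT-CO2 at 9343, MT-CO3 at 8856 and MT-CO1 at 8720.5 FPKM, and in both groups each of the 3 overlapped its neighbour. MT-ND5 and MT-ND6 were the lowest of the mRNAs in every group. The highest mRNA stood 8.82 times above the lowest in H1299 with SAHA and 10.9 times with DMSO, 11.8 times in H1703 with SAHA and 12.9 times with DMSO. Between SAHA and DMSO the FPKM order of the 13 mRNAs had a Spearman rho of 0.95 in each line.

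Position on the genome said little about the response of the plus-strand mRNAs: the Spearman rho between start position and log2 fold change was 0.04 in H1299 and -0.11 in H1703, over 12 genes cut from shared precursors. The mRNAs also differ at their 3′ ends. In 6 of 13 the gene ends in an incomplete stop codon that is completed only when the poly(A) tail is added, as in MT-ND1 (MT:4248-4262) and MT-CYB (MT:15873-15887), whose last 15 bases are shown with the incomplete codon in capitals.
MT-ND1 end: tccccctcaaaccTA
MT-CYB end: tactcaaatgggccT
The 6 such mRNAs had a median log2 fold change of 0.82 in H1299 and 0.77 in H1703, and the 7 with a complete stop codon 0.71 and 0.89.

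Both rRNAs rose in each line. MT-RNR2, the RNA of the large mitoribosomal subunit, had 3468, 2636 and 3285 CPM in H1299 with SAHA, against 1418, 1376 and 1497 CPM with DMSO, and rose by 1.07 ± 0.11 on the log2 scale (adjusted p = 3.5e-05, edgeR). In H1703, MT-RNR2 had 20919, 23451 and 26462 CPM with SAHA, against 15915, 15985 and 13262 CPM with DMSO, and rose by 0.67 ± 0.11 (adjusted p = 3.6e-04). MT-RNR1, the RNA of the small subunit, had 622, 552 and 581 CPM in H1299 with SAHA, against 303, 324 and 405 CPM with DMSO, and rose by 0.71 ± 0.12 (adjusted p = 5.4e-04). In H1703, MT-RNR1 had 1986, 1787 and 2315 CPM with SAHA, against 1499, 1475 and 1190.4 CPM with DMSO, and rose by 0.57 ± 0.12 (adjusted p = 0.00272). MT-RNR2 had 5.33 ± 0.485 times the counts of MT-RNR1 in H1299 with SAHA and 4.21 ± 0.488 times with DMSO, against 11.7 ± 1.32 and 10.9 ± 0.264 times in H1703 (SD, n = 3 each). Relative to the mitochondrial mRNA pool neither rRNA was called in either line; without library 3 of H1703 with SAHA, MT-RNR1 was called lower in H1703 (-0.27, adjusted p = 0.0428, edgeR).

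As a group, the tRNAs of the minus strand had the highest median response of the mitochondrial genes. In both lines 6 of the 8 passed the filter on low counts and all 6 rose, with a median log2 fold change of 1.84 in H1299 and 1.55 in H1703. The remaining minus-strand tRNAs, MT-TQ and MT-TS1, did not pass the filter. Of the 6, 4 sit side by side between MT-ND2 and MT-CO1, where the origin of light-strand replication lies between MT-TN and MT-TC. They carry alanine (MT-TA, MT:5587-5655), asparagine (MT-TN, MT:5657-5729), cysteine (MT-TC, MT:5761-5826) and tyrosine (MT-TY, MT:5826-5891). MT-TW, the tryptophan tRNA of the plus strand (MT:5512-5579), ends just before them. The genes are shown 5′ to 3′ on the strand that encodes each one, with GRCh38 bases written as T in place of U, because the cluster held most tRNA counts.
MT-TA: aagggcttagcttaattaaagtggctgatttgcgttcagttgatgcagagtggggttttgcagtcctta
MT-TN: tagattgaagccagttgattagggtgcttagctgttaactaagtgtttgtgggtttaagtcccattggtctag
MT-TC: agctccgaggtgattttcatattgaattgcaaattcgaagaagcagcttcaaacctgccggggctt
MT-TY: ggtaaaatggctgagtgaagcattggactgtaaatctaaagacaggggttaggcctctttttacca
MT-TW: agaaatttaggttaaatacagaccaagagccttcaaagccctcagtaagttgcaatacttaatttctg

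Together MT-TA, MT-TN, MT-TC and MT-TY held 91.9 ± 0.621% of the tRNA counts in H1299 with SAHA and 78.9 ± 2.08% with DMSO, and 91.5 ± 1.31% and 88.6 ± 0.620% in H1703. MT-TN had 241, 251 and 290.3 CPM in H1299 with SAHA, against 61.2, 54.1 and 57.9 CPM with DMSO, a log2 fold change of 2.12 ± 0.10 (adjusted p = 3.6e-07, edgeR), or 4.35-fold. In H1703 MT-TN had 569.7, 595 and 582 CPM with SAHA, against 221, 222 and 185 CPM with DMSO, a log2 fold change of 1.49 ± 0.09 (adjusted p = 4.3e-07). The spread within each group was small beside the gap between groups. MT-TC followed it closely, with 243, 265 and 289.7 CPM in H1299 with SAHA, against 68.8, 56.5 and 62.6 CPM with DMSO, and 536, 595 and 567 CPM in H1703 with SAHA, against 217, 218 and 184 CPM with DMSO. Its log2 fold changes were 2.03 ± 0.10 and 1.47 ± 0.09. MT-TA rose by 1.92 ± 0.11 in H1299 and 1.84 ± 0.11 in H1703, and MT-TY by 1.76 ± 0.10 and 1.61 ± 0.08. MT-TP, the proline tRNA beside the control region, rose by 1.51 ± 0.17 and 1.79 ± 0.12. MT-TE, the glutamate tRNA next to MT-ND6, rose least of the 6, by 1.06 ± 0.18 and 1.35 ± 0.14. A library insert of about 300 bases, as the labels give it, is longer than any of these genes, so a fragment counted on a tRNA can also cover its neighbours. The plus-strand precursor runs through the same cluster in antisense, and with the contradiction on strand its part in these counts cannot be told apart from that of the tRNAs.

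Relative to the mitochondrial mRNA pool the cluster also rose, beside 14.6% of all genes tested called higher in H1299 and 14.0% in H1703. On that scale MT-TN rose by 1.27 ± 0.11 in H1299 (adjusted p = 5.3e-07, edgeR) and 0.67 ± 0.16 in H1703 (adjusted p = 0.00128), and 5 of the 6 minus-strand tRNAs were called higher in H1299 and 6 of 6 in H1703. MT-TE was the exception in H1299 (0.21 ± 0.19, adjusted p = 0.309), and its call in H1703 was lost with the repeat block (0.50, adjusted p = 0.0828).

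Fewer calls were made for the plus-strand tRNAs, whose counts were below those of MT-TA, MT-TN, MT-TC and MT-TY. In H1299 the called MT-TE of the minus strand had 121, 132 and 153 counts with SAHA, against 53, 64 and 76 with DMSO. These were fewer than the counts of MT-TL1, which was not called there. The 2 genes also differed in log2 fold change, at 1.06 ± 0.18 for MT-TE and 0.27 ± 0.11 for MT-TL1. The part of count depth in the number of calls was not tested. In H1299, 11 of the 14 passed the filter, 1 rose and 10 were not called, with a median log2 fold change of 0.15. In H1703 all 14 passed and 10 rose, with a median of 0.76. The threonine tRNA MT-TT, the gene between MT-CYB and MT-TP, was the one called in H1299, at 0.75 ± 0.24 (adjusted p = 0.0204, edgeR), and in H1703 it rose by 1.50 ± 0.16 (adjusted p = 2.7e-05). Its call in H1299 was lost without any of 4 single libraries: the adjusted p was 0.0504 and 0.0611 without library 1 or 3 of H1299 with SAHA, 0.0762 and 0.0502 without library 1 or 2 of H1299 with DMSO, and 0.0514 with DESeq2. MT-TF, the phenylalanine tRNA at the head of the plus-strand precursor, had 22, 27 and 27 counts in H1299 with SAHA, against 19, 23 and 26 counts with DMSO, and 81, 97 and 63 counts in H1703 with SAHA, against 30, 37 and 24 counts with DMSO. It was not called in H1299 (0.15 ± 0.26, adjusted p = 0.627) and rose in H1703 (1.42 ± 0.21, adjusted p = 2.6e-04). MT-TL1, a leucine tRNA between MT-RNR2 and MT-ND1, had 298, 281 and 288 counts in H1299 with SAHA, against 248, 216 and 249 counts with DMSO (0.27 ± 0.11, adjusted p = 0.0628). H1703 had 828, 793 and 1036 counts with SAHA, against 397, 476 and 350 counts with DMSO, and rose by 1.15 ± 0.14 (adjusted p = 7.3e-05). Relative to the mitochondrial mRNA pool, 9 of the 11 plus-strand tRNAs tested in H1299 were called lower and none higher, against 1 lower and 1 higher of 14 in H1703. Of all genes tested, 64.1% were called lower and 14.6% higher on that scale in H1299, and 61.0% and 14.0% in H1703. The median of the plus-strand tRNAs was -0.69 in H1299 and -0.08 in H1703, beside -0.84 and -0.82 over all genes.

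**Figure D3:**
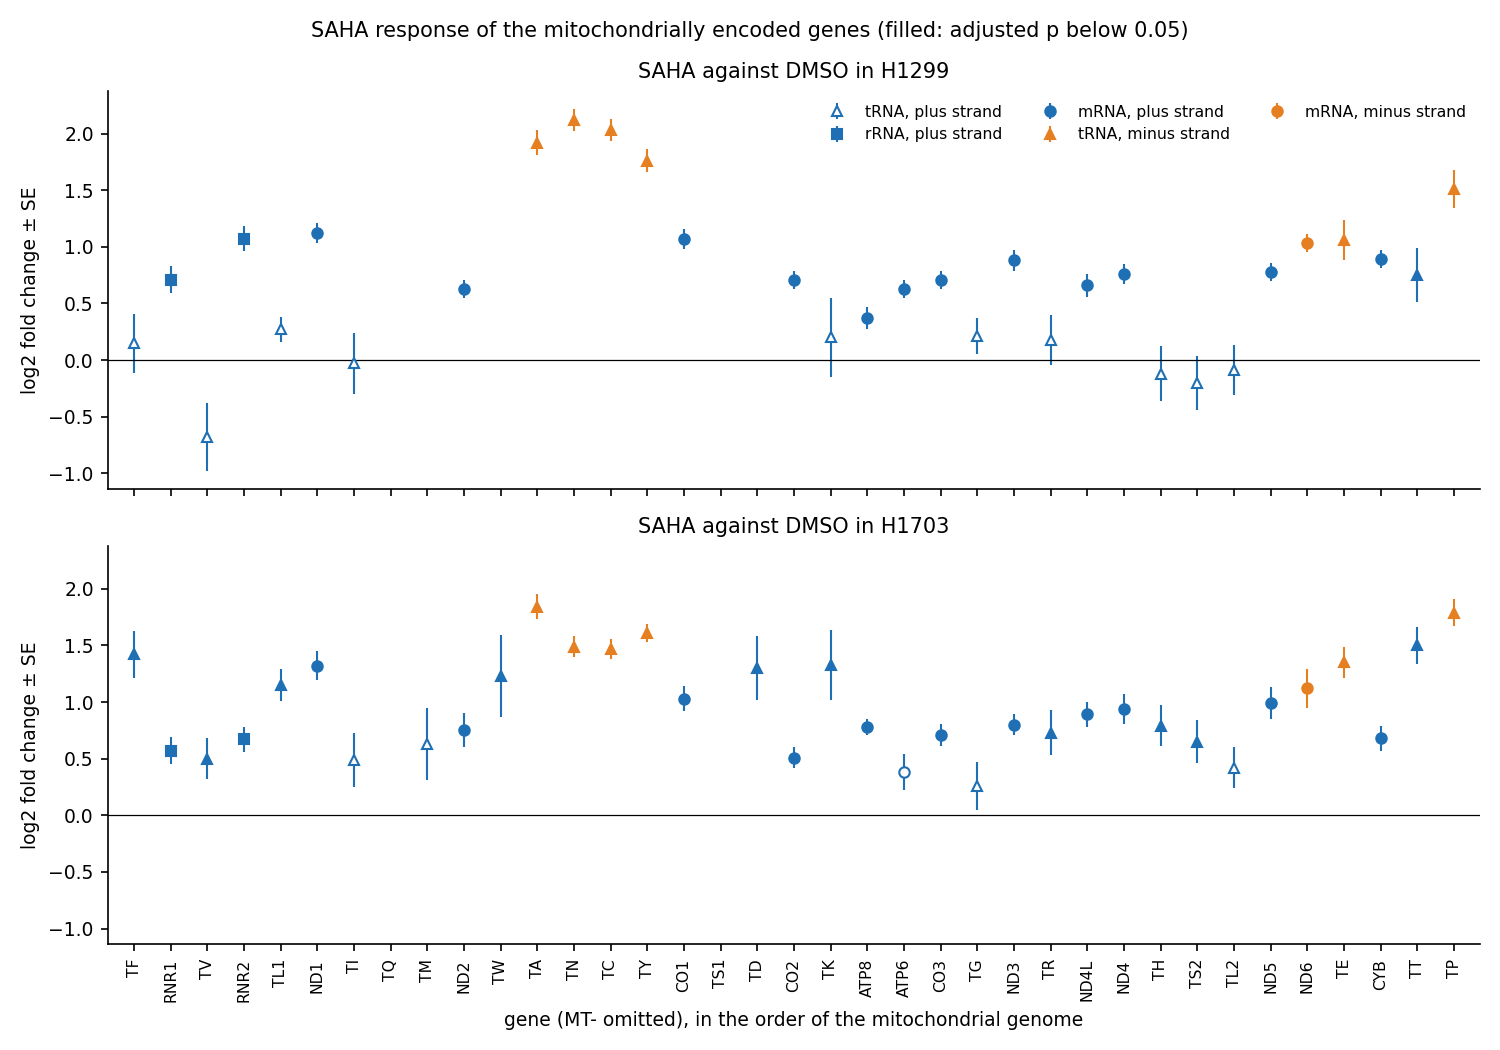
Log2 fold change ± SE for SAHA against DMSO of each mitochondrial gene that passed the filter, in genome order, in H1299 (above) and H1703 (below). Circles are mRNAs, squares rRNAs and triangles tRNAs; minus-strand genes are orange, and filled symbols passed an adjusted p of 0.05. The cluster MT-TA to MT-TY stands above its neighbours in both lines, between 1.76 and 2.12 in H1299, while most plus-strand tRNAs of H1299 lie near 0.

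Whether the SAHA response differed between the lines was tested as an interaction over all 12 libraries. Of all genes tested, 34.9% were called, 13.7% toward a higher value in H1703 and 21.2% toward a lower one, and the median difference over all genes was -0.09. Of the 35 mitochondrial genes tested, 4 were called toward H1703 and 3 toward H1299. The responses of MT-TF (difference 1.19 ± 0.32, adjusted p = 0.0110, edgeR), MT-TV (1.11 ± 0.33, adjusted p = 0.0182) and MT-TL1 (0.80 ± 0.19, adjusted p = 0.00396) were higher in H1703. MT-TV, the valine tRNA between the rRNAs that also serves as a structural RNA of the mitoribosome, had 115, 124 and 160 counts in H1703 with SAHA, against 102, 108 and 77 counts with DMSO, and 14, 14 and 12 counts in H1299 with SAHA, against 16, 23 and 25 counts with DMSO. Its own change was -0.68 ± 0.30 in H1299 (adjusted p = 0.0771) and 0.50 ± 0.18 in H1703 (adjusted p = 0.0359, and 0.0621 with the repeat block). Without library 3 of H1703 with SAHA it was 0.31 (adjusted p = 0.128). MT-TN (-0.70 ± 0.13, adjusted p = 8.6e-04) and MT-TC (-0.63 ± 0.14, adjusted p = 0.00270) rose less in H1703 than in H1299.

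Among mRNAs and rRNAs the responses differed by little. MT-RNR2 rose less in H1703 (-0.48 ± 0.16, adjusted p = 0.0360, edgeR), a call lost with the repeat block (adjusted p = 0.0543), with DESeq2 (0.0668) and without most single libraries (up to 0.0925). MT-ATP8 rose more in H1703 (0.35 ± 0.12, adjusted p = 0.0407), a call lost with the block (adjusted p = 0.0503) and without single libraries (up to 0.108). The other 12 mRNAs were not called and lay between -0.33 and 0.16. Without library 3 of H1703 with SAHA, 3 mRNAs were called toward H1299: MT-CO2 (-0.35, adjusted p = 0.0302), MT-CYB (-0.43, adjusted p = 0.00753) and MT-ATP6 (-0.54, adjusted p = 0.00381).

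Under DMSO, mitochondrial RNA was higher in H1703 than in H1299 for every mRNA. H1703 held 2.77 times the mitochondrial share of H1299, 5.88 ± 0.418% of the counts against 2.12 ± 0.138% (SD, n = 3 each). Of all genes tested between the lines 66.5% were called, 34.3% higher in H1703. Of the 35 mitochondrial genes tested 26 were higher in H1703 and none lower. All 13 mRNAs were higher, with a median log2 fold change of 1.08, beside 0.00 over all genes, from 0.69 ± 0.09 for MT-ND3 to 1.65 ± 0.10 for MT-CO1 (adjusted p = 4.4e-09, edgeR). By complex, the median was highest for complex IV, with MT-CO1, MT-CO3 at 1.62 ± 0.10 and MT-CO2 at 1.38 ± 0.09. MT-ATP6 was at 1.40 ± 0.13, and at 2.08 ± 0.28 with the counts of MTATP6P1 added. The rank of position again showed little, with a Spearman rho of -0.10 over the 12 plus-strand mRNAs.

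The rRNAs had the 2 largest fold changes among rRNAs and mRNAs. MT-RNR2 was 10.5-fold higher in H1703 with DMSO, at 15915, 15985 and 13262 CPM, against 1418, 1376 and 1497 CPM in H1299 with DMSO (log2 3.40 ± 0.13, adjusted p = 2.0e-11, edgeR). MT-RNR1 was 4.03-fold higher, at 1499, 1475 and 1190.4 CPM against 303, 324 and 405 CPM (2.01 ± 0.13, adjusted p = 6.6e-09), and MT-TV between them was at 2.27 ± 0.22. The groups stood far apart for each of these neighbours. The rRNAs were 26.4 ± 1.23% of the mitochondrial counts in H1703 with DMSO and 9.05 ± 0.424% in H1299 with DMSO. In poly(A) libraries, more rRNA and more polyadenylated rRNA cannot be told apart. Of the minus-strand tRNAs tested, 6 of 6 were higher in H1703, and MT-TN led them at 1.86 ± 0.10. MT-TP was the smallest at 0.38 ± 0.16 (adjusted p = 0.0450, edgeR), a call that was lost with the repeat block (0.0612), under every other scaling (up to 0.294), with DESeq2 (0.145) and without any single DMSO library. Of the 14 plus-strand tRNAs, 5 were higher and 9 not called. MT-TM and MT-TI, 2 of the 5, had adjusted p values of 0.0379 and 0.0202, which became 0.109 and 0.0634 with DESeq2. MT-TK, MT-TG, MT-TR, MT-TH, MT-TS2 and MT-TL2, which lie between MT-CO2 and MT-ND5, were between -0.38 and -0.06 and were not called, whereas MT-TT, farther along the same strand, was higher at 1.38 ± 0.20 (adjusted p = 3.6e-05, edgeR).

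**Figure D4:**
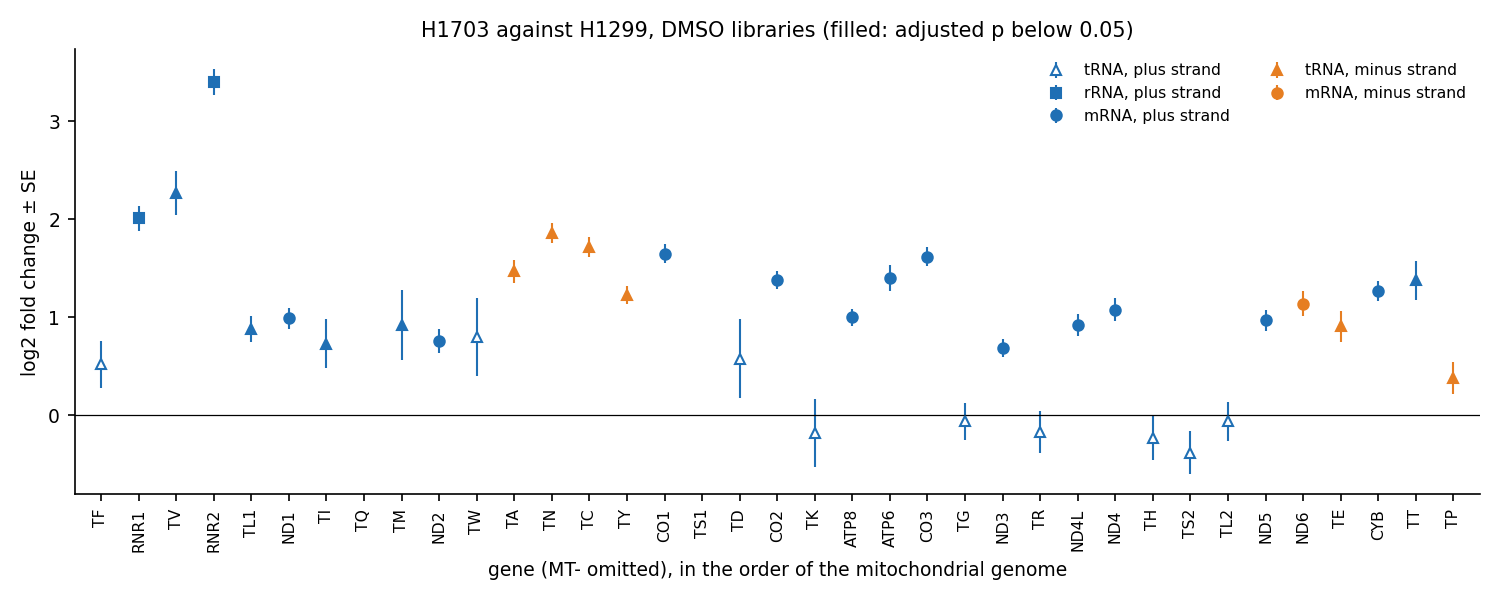
Log2 fold change ± SE of H1703 against H1299 in the DMSO libraries for each mitochondrial gene that passed the filter, in genome order. Circles are mRNAs, squares rRNAs and triangles tRNAs; minus-strand genes are orange, and filled symbols passed an adjusted p of 0.05. MT-RNR2 stands at 3.40, above all others, and the open triangles on or below 0 are plus-strand tRNAs.

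Nuclear subunits of the same complexes were called in both directions. Of 74 nuclear subunits of complexes I, III, IV and V, 14 rose and 23 fell with SAHA in H1299, with a median log2 fold change of -0.08, and 25 rose and 23 fell in H1703, with a median of -0.01. Over all genes the shares called were 33.3% higher and 30.4% lower in H1299, and 34.7% and 32.6% in H1703. For complex I, 5 of 37 rose and 11 fell in H1299, and 8 rose and 15 fell in H1703. The accessory subunit NDUFB2 averaged 36.3 ± 2.2 CPM in H1299 with SAHA and 90.8 ± 3.5 CPM with DMSO (-1.38 ± 0.09, adjusted p = 1.9e-06, edgeR), and 51.7 ± 6.7 and 128 ± 8.9 CPM in H1703 (-1.29 ± 0.11, adjusted p = 4.8e-06). For complex IV, 2 of 12 rose and 3 fell in H1299, and 7 rose and 2 fell in H1703. COX6A1, which is a nuclear subunit of that complex, averaged 365 ± 35 CPM with SAHA and 201 ± 10 CPM with DMSO in H1299, and 715 ± 57 and 234 ± 9.2 CPM in H1703, a log2 fold change of 0.81 ± 0.09 and 1.63 ± 0.08. In complex V, 6 rose and 6 fell of 16 in H1299, and 5 rose and 3 fell in H1703. Complex II, which has no mitochondrial subunit, had SDHA higher in both lines, by 0.51 ± 0.09 and 0.78 ± 0.09, and SDHD lower in H1299 (-0.79 ± 0.12) but higher in H1703 (0.61 ± 0.16), a difference that the interaction also called (1.33 ± 0.22, adjusted p = 3.6e-04).

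The lists of genes that maintain and express the mitochondrial genome differed in how many members were called. Over all genes tested, 33.3% rose and 30.4% fell in H1299, and 34.7% rose and 32.6% fell in H1703. Of 16 genes of mitochondrial DNA replication and maintenance, 10 fell and 3 rose in H1299 (median -0.60), and 12 fell and 4 rose in H1703 (median -0.46). LIG3, the ligase of mitochondrial DNA, averaged 13.6 ± 2.1 CPM with SAHA and 38.4 ± 3.3 CPM with DMSO in H1299, and 24.0 ± 1.2 and 70.1 ± 1.7 CPM in H1703, a fall by 1.56 and 1.53 on the log2 scale. MGME1, an exonuclease of mitochondrial DNA, fell by 1.37 in H1703. SLC25A4, the ADP/ATP carrier placed in that list for its link to stable mitochondrial DNA, rose by 1.08 ± 0.08 in H1299. Of 9 transcription genes, 1 rose and 2 fell in H1299, and 3 rose and 4 fell in H1703. TFAM, which packages mitochondrial DNA and opens its promoters, fell by 0.58 in H1299 (adjusted p = 5.9e-04, edgeR), from which the response in H1703 differed by 0.74 ± 0.12 (adjusted p = 3.1e-04). TFB1M, the methyltransferase of the small rRNA, rose by 0.42 ± 0.11 in H1299 and 1.02 ± 0.14 in H1703.

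Of 19 genes of mitochondrial RNA processing, polyadenylation and turnover, 1 rose and 7 fell in H1299 (median -0.19), and 2 rose and 11 fell in H1703 (median -0.26). For this list and those that follow, the shares over all genes tested were 33.3% higher and 30.4% lower in H1299, and 34.7% and 32.6% in H1703. ELAC2, which cuts the 3′ ends of tRNAs out of the precursors, fell by 0.56 in H1299 (117 ± 3.3 CPM with SAHA, 167 ± 17 CPM with DMSO), and TRMT10C, a subunit of the RNase P that cuts the 5′ ends, rose by 0.56 ± 0.14. FASTKD2, a protein that binds MT-RNR2 and MT-ND6 RNA, fell by 1.49 in H1703. The SAHA response of LRPPRC, which stabilises mitochondrial mRNAs, was 0.70 ± 0.15 higher in H1703 than in H1299 (adjusted p = 0.00210). Of 17 mitochondrial tRNA synthetases, 3 rose and 4 fell in H1299, and 3 rose and 11 fell in H1703. YARS2, which charges MT-TY, fell by 0.76 in H1299, where MT-TY itself rose. Of 78 mitoribosomal proteins, 17 rose and 29 fell in H1299, and 8 rose and 34 fell in H1703. Of 12 translation factors, 3 rose and 4 fell in each line. GFM2, which recycles mitoribosomes, rose by 1.18 ± 0.11 and 0.87 ± 0.08, and TACO1, the translational activator of MT-CO1, fell by 1.49 in H1703, against an MT-CO1 mRNA that rose by 1.03 there.

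Of the mitochondrial chaperones and proteases, 10 of 12 fell and 1 rose in H1299, and 9 fell and 2 rose in H1703. Of all genes tested, 30.4% fell and 33.3% rose in H1299, and 32.6% fell and 34.7% rose in H1703. HSPD1, the main matrix chaperonin, averaged 378 ± 52 CPM with SAHA and 976 ± 75 CPM with DMSO in H1299, and 276 ± 8.3 and 577 ± 43 CPM in H1703. LONP1, a protease that degrades TFAM, fell by 0.93 in H1703. Its response there was 1.19 ± 0.13 lower than in H1299 (interaction, adjusted p = 5.8e-06, edgeR). HTRA2 of the same list rose by 0.39 ± 0.09 in H1299 and 0.96 ± 0.11 in H1703. Among 8 regulators of mitochondrial biogenesis 4 fell in each line. PPRC1 fell by 1.16 and 1.50, and NRF1 fell by 1.00 in H1299. PPARGC1A, the coactivator known as PGC-1alpha, rose in both lines at low levels, to 6.44 ± 2.4 CPM in H1299 with SAHA, against 1.93 ± 0.47 CPM with DMSO, and to 0.906 ± 0.17 CPM in H1703 with SAHA, against 0.177 ± 0.15 CPM with DMSO. No list was tested as a set, and which of these genes bears on the mitochondrial RNAs was not tested.

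**Figure D5:**
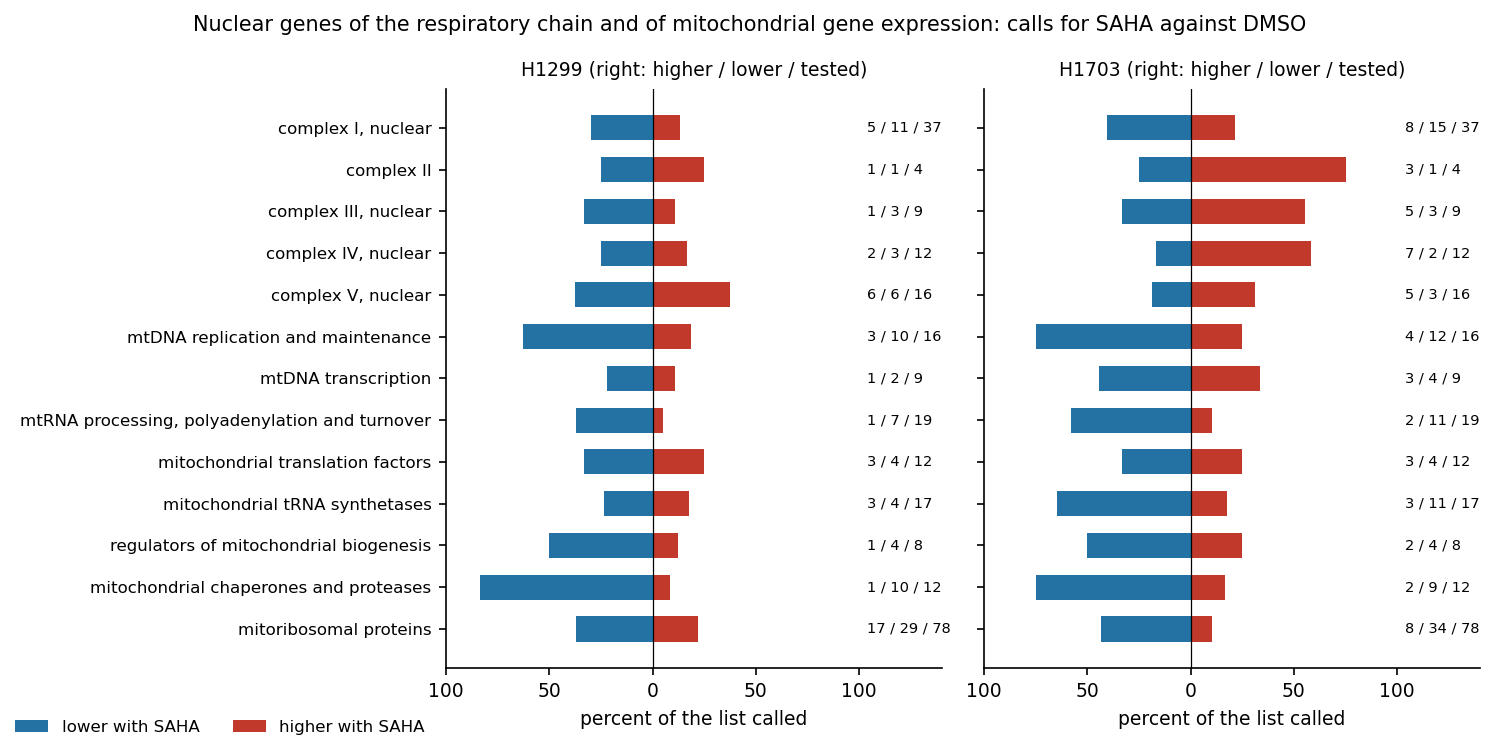
Percent of each nuclear gene list called for SAHA against DMSO, bars to the right for genes that rose and to the left for genes that fell, with the numbers risen, fallen and tested beside each bar, H1299 on the left and H1703 on the right. Chaperones and proteases have 10 of 12 lower in H1299 and 9 of 12 lower in H1703, and the mitochondrial DNA maintenance list has 10 of 16 and 12 of 16 lower. Over all genes tested, 30.4% were lower and 33.3% higher in H1299, and 32.6% and 34.7% in H1703.

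Between the lines under DMSO, 34.3% of all genes tested were higher in H1703 and 32.2% lower. Of the 74 nuclear subunits of complexes I, III, IV and V, 19 were higher in H1703 and 35 lower, with a median log2 fold change of -0.22. COX6C of complex IV averaged 84.5 ± 9.3 CPM in H1703 and 140.3 ± 6.6 CPM in H1299, and COX5A averaged 202 ± 9.2 and 133 ± 5.9 CPM. OXA1L, the insertase for membrane subunits made in the matrix, was 1.26 ± 0.09 higher on the log2 scale in H1703, and TEFM, the elongation factor of mitochondrial RNA polymerase, 0.93 ± 0.14 higher (adjusted p = 3.6e-05, edgeR), at 21.1 ± 2.6 CPM against 11.1 ± 1.2 CPM in H1299.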

How the data were processed

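Per the labels, polyadenylated RNA of 2 cell lines was sequenced in 12 libraries, 4 groups of 3. The authors deposited 1 table per line with raw counts and FPKM values per library, per the file headers; the counts are whole numbers without normalization, and the deposited FPKM values rest on the length of each locus. HISAT2 2.1.0, StringTie 1.3.3b, fastp, FastQC 0.11.9, edgeR 3.30.3 and the build GRCh38 appear in the submitters' processing notes. Which tool counted reads, whether it used strand and how it treated multiply aligned reads was not given there. All 37 positions equal those of GENCODE 44, and sequences come from the GRCh38 reference. Control columns carry the shorthand NC, the only non-SAHA group of each line, and were taken as DMSO.

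The quasi-likelihood test of edgeR 4.0.16 (R 4.3.3) was used on the counts with robust dispersion and TMM scaling. Genes entered through filterByExpr at 10 counts and a total of 15, and p-values were adjusted over all that entered (Benjamini-Hochberg). SE is the log2 fold change divided by the root of F. Each line was fitted alone; the interaction and the line comparison used all 12 libraries, so CPM, scaled over 12 libraries, and fold changes within a line rest on slightly different scalings. The pool-share fit replaced the library size by the sum of the 13 mRNA counts, without TMM. CPM of the cell type markers, CPM of MT-ATP6 and MTATP6P1 together, and the bound of 1 CPM for nuclear copies used the library total without TMM. DESeq2 1.42.0 and the other alternatives are in the closing section. All 13 mRNAs, both rRNAs and tRNAs with a mean of 10 or more counts in a group could be named; nuclear examples come from the called members of each list with the smallest adjusted p, in both directions, and the copies named are the most abundant of those with a mean of 1 CPM or more.

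The labels give the repeat number as a batch, so same-numbered libraries are paired by the labels; their deviations from the group means correlated between -0.04 and 0.03. Replicates differed by more than counting noise (chi-square over its degrees of freedom 10.9 to 24.7). The scripts were tested on simulated data. Members and lists were chosen with earlier results of these data known.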

Additional observations from a re-analysis of the deposited data

Results flagged for a closer look

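The SAHA response of 7 mitochondrial genes differed between H1703 and H1299 in the interaction test of edgeR, as log2 difference, H1703 minus H1299. It was higher in H1703 for MT-TF (1.19), MT-TV (1.11), MT-TL1 (0.80) and MT-ATP8 (0.35), and lower for MT-RNR2 (-0.48), MT-TN (-0.70) and MT-TC (-0.63). The first 3 are tRNAs that flank the rRNAs on the plus strand, and MT-TN and MT-TC are neighbours on the minus strand. MT-TV rests on 12 to 25 counts per library in H1299, and its adjusted p was 0.0502 without library 3 of H1299 with DMSO. For comparison, 34.9% of all genes tested were called in this interaction, against 7 of the 35 mitochondrial genes tested. Why these genes differed was not tested.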

How the results depend on the processing

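No called gene changed direction under any alternative scaling, filter, tool, block or left-out library. Some genes that were not called did: without library 3 of H1703 with SAHA the interaction of MT-ND1, MT-ND2, MT-ND4, MT-ND5 and MT-ND6 lay between -0.20 and -0.03, in place of 0.01 to 0.14. Mitochondrial genes called higher and lower, in SAHA against DMSO within each line and, for those called higher, between the lines under DMSO, stayed within 1.5 times their counts in all of them. In the interaction the count called higher, 4, was 7 with TMM computed without chromosome MT and ran from 2 to 6 over left-out libraries (2 without library 3 of H1299 with DMSO); the count called lower, 3, was 6 with library totals alone and ran from 2 to 6 (6 without library 3 of H1703 with SAHA). Between the lines under DMSO, 1 gene, MT-TS2, was called lower with library totals alone, in place of 0. In the pool-share fit of H1703 the 2 genes called lower became 0 with the replicate block and ran from 0 to 4 over left-out libraries: 0 without library 1 of either group, 1 without library 2 with DMSO and 4 without library 3 with SAHA. Counting mRNAs only, the share differed by 1.70 percentage points between SAHA and DMSO in H1299, in place of 1.98, and by 2.36 between the lines, in place of 3.75. The causes of these shifts were not tested. Library totals alone moved the median log2 fold change of all genes to -0.19 in the interaction and -0.17 between the lines; DESeq2 and no filter moved it to between 0.13 and 0.19 within the lines. The replicate block also lost the pool-share call of MT-TF in H1299 (adjusted p = 0.0677) and of MT-TG in H1703 (0.0753) and, apart from those named with their results, changed no other call. In H1299, 7 plus-strand tRNAs (MT-TF, MT-TV, MT-TI, MT-TM, MT-TW, MT-TD and MT-TK) had only 5 to 27 counts per library. Of these, MT-TM, MT-TW and MT-TD did not pass the filter there. The part of depth in the missing calls of the others was not tested.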
